A study of Rattus norvegicus with 11 samples.

Results

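Oxidative phosphorylation is carried out by protein complexes whose subunits are encoded by both the mitochondrial and the nuclear genome, and the transcripts of both were compared in cultured rat sensory neurons. Members were chosen by name: every gene whose symbol starts with Mt- (mitochondrially encoded), with Ndufa, Ndufb, Ndufc, Ndufs, Ndufv, Uqcr, Cox4 to Cox8 or Atp5, and Sdha, Sdhb, Sdhc, Sdhd, Cycs and Cyc1. Of 22076 genes with values, 108 had such a name. Of these, 104 reached a mean of at least 1 FPKM (fragments per length of transcript and per library size) over all libraries, among 12107 genes of the whole table that did. They comprised 13 mitochondrially encoded and 91 nuclear encoded genes, and of the latter 78 encode subunits. The other 13 were caught by their prefix without encoding subunits, namely 8 complex I assembly factors (Ndufaf1 to Ndufaf8), the supercomplex factor Cox7a2l, the paralogs Cox7a2l2, Ndufa10l1 and Ndufa4l2, and Atp5if1, the inhibitor of ATP synthase. The 4 names under 1 FPKM were the pseudogene Cox6c-ps1, at a mean of 0.976 FPKM, and the tissue isoforms Cox7b2, Cox8b and Cox8c, at 0.148, 0.0436 and 0 FPKM.

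The series compared wild-type Sprague-Dawley dorsal root ganglion (DRG) neurons left untreated (n = 3) with neurons given Schwann cell conditioned medium (SCCM, n = 4) or 1 µM prostaglandin E2 (PGE2, n = 4). Ganglia came from embryos at embryonic day 15, with 10 to 18 embryos of a pregnant rat pooled into 1 biological replicate, and neurons were purified by immunopanning. SCCM carries what Schwann cells, the glia that ensheath these axons, release, and PGE2 is a lipid mediator that sensitises sensory neurons. Agents were added on day 13 of culture and left overnight, with RNA purified on day 14, so all groups share the same strain, genotype and time in culture. Libraries were made from poly-A enriched RNA with an integrity number above 8.

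Electrons from NADH enter the respiratory chain at complex I and those from succinate at complex II, pass through complex III and the mobile carrier cytochrome c, and reduce oxygen at complex IV. Complexes I, III and IV pump protons, and complex V, the ATP synthase, uses the gradient to make ATP. Mitochondrial DNA supplies core membrane subunits of complexes I, III, IV and V, transcribed as long polycistronic RNAs that are cut into shorter messages, whereas complex II, cytochrome c and all other subunits come from the nucleus. Neurons depend heavily on this pathway, because ion pumping and axonal transport use much ATP.

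Nuclear respiratory genes are known targets of the transcription factors NRF1, GABP (of the ETS family) and YY1. Promoters of 300 bases, from 250 bases before to 50 after the start, were found in RefSeq (build GRCr8) for 78 of the 91 nuclear members, and their letters were searched on both strands. The NRF1 letters GCGCATGC were held by 11 promoters (14.1%), the ETS letters CCGGAAGT by 8 (10.3%) and the YY1 letters AAGATGGC by 16 (20.5%). Among all 27457 promoters these letters were held by 2.66%, 4.01% and 3.44%, and among the 8765 promoters of tested genes by 5.53%, 8.69% and 6.07%. In all, 30 members held at least 1 of the 3, and 5 held 2 of them, namely Atp5me, Atp5po, Cox8a, Ndufa6 and Uqcrc1. Of the 16 YY1 matches, 14 were on the strand of the gene and 11 began at or after the start. NRF1 matches on both strands overlap where they occur together, since the letters are nearly their own reverse complement. A match describes letters in the window, and no binding was measured.

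The promoters below are written 5′ to 3′ on the strand of the gene, with matched letters in capitals. They belong to Cycs and Atp5mc2, whose levels are described further on, and to Uqcrc1 and Cox8a. Uqcrc1 and Cox8a are shown for holding more than 1 kind of match, and their levels are not described. Cycs, which encodes cytochrome c, lies at chr4:80984718-80985017 (minus strand) and Atp5mc2, which encodes a copy of the rotor ring subunit c of ATP synthase, at chr7:135678169-135678468 (minus strand). Both hold an NRF1 match and are shown because libraries of 1 treated group did not overlap with untreated libraries for them. Uqcrc1, a core subunit of complex III at chr8:118467973-118468272 (plus strand), joins an NRF1 match with a YY1 match at the start. Cox8a, of complex IV, at chr1:213833574-213833873 (minus strand), joins ETS and YY1 matches.
Cycs: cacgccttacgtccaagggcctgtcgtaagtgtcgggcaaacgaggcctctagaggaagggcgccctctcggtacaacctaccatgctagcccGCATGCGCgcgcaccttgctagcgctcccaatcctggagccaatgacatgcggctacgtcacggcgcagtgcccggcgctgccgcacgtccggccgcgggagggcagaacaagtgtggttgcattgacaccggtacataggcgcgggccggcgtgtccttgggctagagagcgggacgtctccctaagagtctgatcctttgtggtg
Atp5mc2: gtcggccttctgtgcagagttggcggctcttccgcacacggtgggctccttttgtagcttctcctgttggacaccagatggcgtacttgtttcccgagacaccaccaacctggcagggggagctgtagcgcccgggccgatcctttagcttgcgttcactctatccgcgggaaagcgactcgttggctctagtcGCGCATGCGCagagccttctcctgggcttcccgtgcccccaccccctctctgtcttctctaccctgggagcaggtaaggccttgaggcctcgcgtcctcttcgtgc
Uqcrc1: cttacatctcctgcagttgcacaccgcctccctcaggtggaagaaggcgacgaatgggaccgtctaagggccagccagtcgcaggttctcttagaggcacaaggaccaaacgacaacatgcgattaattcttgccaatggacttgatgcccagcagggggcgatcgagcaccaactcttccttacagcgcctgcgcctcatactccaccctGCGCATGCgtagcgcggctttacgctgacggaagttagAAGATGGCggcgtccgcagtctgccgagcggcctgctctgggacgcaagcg
Cox8a: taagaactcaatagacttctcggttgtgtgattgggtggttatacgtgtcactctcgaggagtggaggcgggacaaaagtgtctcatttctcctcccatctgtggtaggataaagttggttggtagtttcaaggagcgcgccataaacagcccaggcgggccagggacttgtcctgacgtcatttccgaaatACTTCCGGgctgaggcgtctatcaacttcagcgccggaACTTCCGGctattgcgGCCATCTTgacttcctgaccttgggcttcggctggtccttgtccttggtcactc

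Relative depth was estimated from the commonest ratio of low FPKM values between libraries, which put the deepest 1.32-fold above the shallowest. Genes with ratios beyond a set limit were left out beforehand, so a large difference in depth could not have shown. Likeness in depth was thus not established. Total read numbers are not given, so no counting interval was set. The 15 neuronal markers summed to between 7139 and 12069 FPKM in untreated, 8902 and 13231 in SCCM and 11802 and 12857 in PGE2 libraries. Against untreated, 11 of 15 had a higher mean with either treatment, with median log2 changes of 0.42 for SCCM and 0.29 for PGE2. Of all tested genes, 38.7% had a higher mean with SCCM and 32.9% with PGE2. The 7 tested proliferation markers all had a lower mean with either, beside 61.3% and 67.1% of all tested genes. Their medians were −0.60 and −0.47. In limma 0 genes of either list had an adjusted p under 0.05. At an unadjusted p under 0.05 there were 4 neuronal markers, all higher, and 2 proliferation markers with SCCM, against 13.6% of all genes. With PGE2 there were 4 neuronal markers, 3 higher and 1 lower, and 0 proliferation markers, against 5.72% of all genes. The part of both lists in the values of the members was not tested. Of 14 macrophage markers, 13 stayed under 1 FPKM in every library and Ptprc, C1qb and C1qc were listed at 0, while Cd68 ranged from 0.04 to 45.1 FPKM. Summed macrophage markers ran from 4.11 to 45.2 FPKM in untreated, 0.41 to 15.6 in SCCM and 0.22 to 14 in PGE2 libraries. Schwann and satellite glia markers summed to 117 to 265 FPKM without treatment, 254 to 403 with SCCM and 196 to 325 with PGE2. Of these, 9 of 19 stayed under 1 FPKM everywhere and Gfap was listed at 0. Ngfr alone held 260 of 403 FPKM in SCCM replicate 2 and 29.05 of 117 in untreated replicate 3. It averaged 72.9 FPKM without treatment, 167 with SCCM and 107 with PGE2. Of 7 tested markers of this list, 4 had a higher and 3 a lower mean with either treatment. Which cells the Ngfr RNA came from was not tested. Of the fibroblast markers 9 of 11 stayed under 1 FPKM, and the list summed to between 345 and 851 FPKM in untreated, 219 and 849 in SCCM and 799 and 974 in PGE2 libraries. Nearly all of that sum came from Thy1, which neurons also express (217 to 971 FPKM), and Pdgfra reached 3.74 FPKM. Of the endothelial and mural markers 8 of 10 stayed under 1 FPKM, with a sum of 0.66 to 4.09 FPKM, and red blood cell markers summed to at most 0.16 FPKM. Fewer cells of a type and less RNA per cell cannot be told apart in such bulk samples.

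The 13 mitochondrially encoded genes varied far more between libraries than the 91 nuclear encoded genes did, and they did so within every group. Mitochondrially encoded genes took 5.54%, 3.37% and 5.24% of summed FPKM in untreated replicates 1 to 3, with a mean of 4.72% ± 1.18 (SD, n = 3). Values of a group are given in the order of replicate numbers throughout. In SCCM replicates 1 to 4 the share was 4.09%, 8.06%, 3.71% and 10.9%, with a mean of 6.70% ± 3.44 (SD, n = 4). In PGE2 replicates 1 to 4 it was 5.36%, 3.203%, 7.86% and 8.14%, with a mean of 6.14% ± 2.32 (SD, n = 4). SCCM replicates 2 and 4 and PGE2 replicates 3 and 4 lay above every untreated library, whereas the lowest value of all belonged to PGE2 replicate 2, so all groups overlapped. Between the lowest and the highest library the share differed 3.41-fold.

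Nuclear encoded members took between 1.78% and 2.14% of summed FPKM, a 1.20-fold range. Their mean share was 1.90% ± 0.116 (SD, n = 3) without treatment, 1.98% ± 0.0724 (SD, n = 4) with SCCM and 2.01% ± 0.125 (SD, n = 4) with PGE2, and the groups overlapped. The ratio of summed mitochondrially to nuclear encoded FPKM therefore ran from 1.498 in PGE2 replicate 2 to 5.68 in SCCM replicate 4. On the log2 scale this ratio averaged 1.28 ± 0.48 without treatment, 1.61 ± 0.75 with SCCM and 1.52 ± 0.65 with PGE2 (SD). Differences between these means were smaller than the SD within each group. The hypoxia and glycolysis genes, listed because their level differs between these libraries, averaged 4.42, 4.27, 4.38 and 3.96 on the log2(FPKM + 1) scale in SCCM replicates 2 and 3 and PGE2 replicates 3 and 4, and between 5.51 and 6.01 in all others. Of those 4 libraries, SCCM replicate 2 and PGE2 replicates 3 and 4 had mitochondrial shares of 8.06%, 7.86% and 8.14%. The share of SCCM replicate 3 was 3.71%. SCCM replicate 4, with the highest share, had a hypoxia average of 5.51. The part of either difference in the other was not tested.

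**Figure D1:**
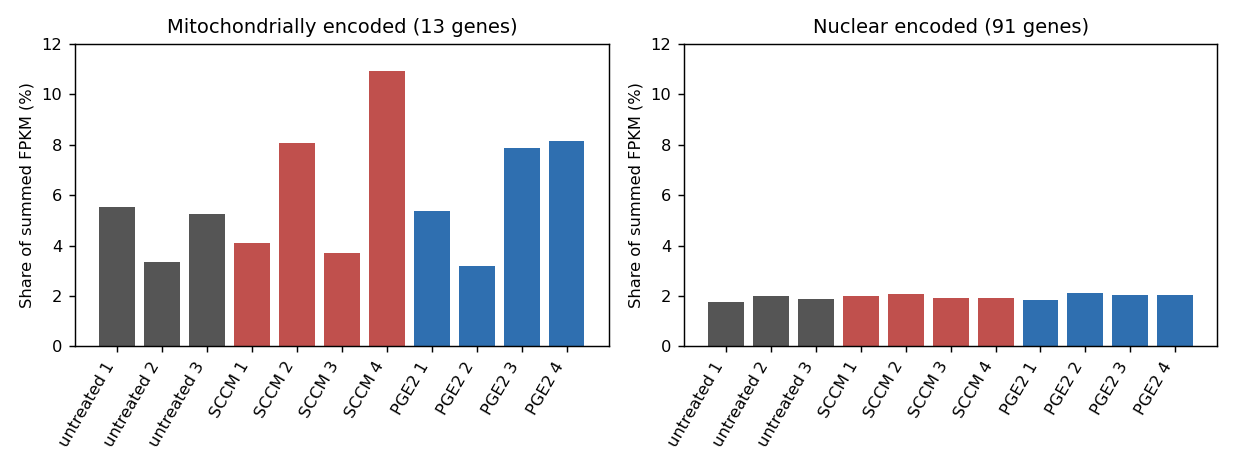
Bars give the share of summed FPKM (in percent, axis from 0) held by the 13 mitochondrially encoded genes (left) and the 91 nuclear encoded genes (right) in each of the 11 libraries, coloured by group. Mitochondrial shares run from 3.203% to 10.9%, nuclear shares from 1.78% to 2.14%, and the groups overlap in both.

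Summed by complex, mitochondrially encoded subunits covered a wider range over libraries than nuclear subunits in each complex that draws on both genomes. Within complex I, the 7 mitochondrially encoded subunits summed to between 2835 and 10930 FPKM, a 3.85-fold range, against a 1.31-fold range for 34 nuclear subunits. Within complex III, cytochrome b (Mt-cyb) covered a 3.67-fold range and the sum of the 9 nuclear subunits a 1.22-fold range. Single nuclear subunits of complex III could range as widely as Mt-cyb: Uqcr11 ran from 29.1 to 113 FPKM. Within complex IV, the 3 mitochondrially encoded subunits of the catalytic core covered a 2.71-fold and the 14 nuclear subunits a 1.49-fold range. Within complex V, Mt-atp6 and Mt-atp8 together covered a 4.00-fold and the 16 nuclear subunits a 1.32-fold range. Complex II, with its 4 subunits all nuclear, covered a 1.36-fold range, cytochrome c a 1.72-fold range, and the 13 genes that are not subunits a 1.77-fold range. The ratio of mitochondrially to nuclear encoded FPKM was lowest in PGE2 replicate 2 and highest in SCCM replicate 4 in every one of these complexes, at 0.965 and 4.21 in complex I, 0.675 and 2.56 in III, 3.07 and 10.6 in IV, and 1.85 and 9.06 in V.

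Single mitochondrially encoded genes stood at very unequal FPKM, in an order that began and ended alike everywhere. Libraries were poly-A enriched, and how far capture differed between these genes or between libraries was not measured. Mt-co1, the subunit that holds the oxygen-reducing site of complex IV, was the highest of the 13 in 11 of 11 libraries, and Mt-nd3, a small membrane subunit of complex I, was the lowest in 11 of 11. Mt-co1 stood at 4229, 3653 and 4252 FPKM in untreated replicates 1 to 3, at 4048, 6583, 3422 and 8151 in SCCM replicates 1 to 4 and at 4369, 4305, 8195 and 5815 in PGE2 replicates 1 to 4. Every PGE2 library was thus above every untreated library for Mt-co1, while the SCCM libraries fell on both sides. Mt-nd3 stood at 454, 138 and 253 FPKM without treatment, at 257, 765, 269 and 797 with SCCM and at 373, 130, 670 and 311 with PGE2, and its groups overlapped. Mt-nd3 had the widest range of the 13 (6.12-fold) and Mt-co1 the narrowest (2.39-fold), and their shares of the mitochondrially encoded sum ran from 0.971% to 2.51% and from 19.0% to 32.1%.

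FPKM of the 13 genes did not keep fixed proportions. Mt-cyb relative to Mt-nd1, another membrane subunit of complex I, ran from 0.917 in untreated replicate 3 to 2.46 in SCCM replicate 2 and 2.48 in PGE2 replicate 3. Mt-co2 relative to Mt-co3, both of the complex IV core, ran from 0.317 to 0.856, and Mt-co1 relative to Mt-nd2, a proton-pumping subunit of complex I, from 1.65 to 4.27. Genes that overlap on the mitochondrial DNA kept closer ratios in the case of Mt-nd4l to Mt-nd4 (1.06 to 1.38) and less so for Mt-atp8 to Mt-atp6 (0.495 to 0.766). Whether such ratios reflect separate RNAs or the way reads were counted was not tested. The ratio of Mt-nd6, the only member of this set encoded on the light strand, to its neighbour Mt-nd5 lay between 0.981 and 1.14. Whether the authors' counting used strand is not stated, so reads of Mt-nd6 and of RNA from the opposite strand cannot be told apart here, and values of overlapping genes are uncertain.

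**Figure D2:**
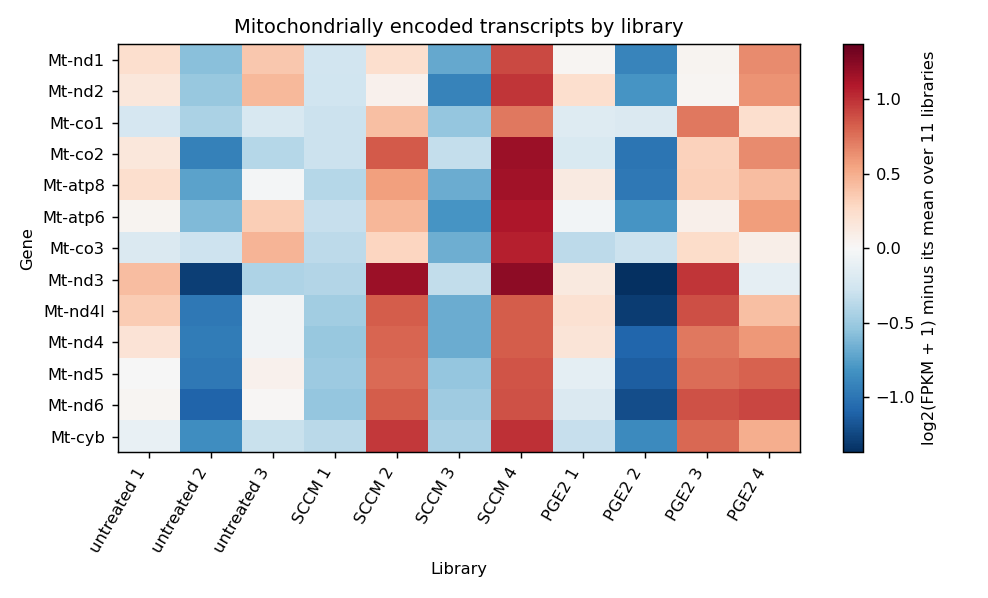
Each cell gives log2(FPKM + 1) of a mitochondrially encoded gene (vertical axis, in the order of the mitochondrial genome) in a library (horizontal axis), minus the mean of that gene over 11 libraries. SCCM replicate 4 is above the mean for all genes and PGE2 replicate 2 is below it for all genes, while Mt-nd1 and Mt-nd2 of PGE2 replicate 3 lie near the mean although Mt-nd4 to Mt-cyb lie above it.

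The spread of single nuclear members between libraries was near that of other genes of like level. The SD of log2(FPKM + 1) over 11 libraries had a median of 0.31 for the 91 nuclear members (0.11 to 1.10), 0.69 for the 13 mitochondrially encoded genes and 0.36 for all 12107 tested genes. Over the 45 nuclear members within their own interquartile range of mean level, 17.5 to 119 FPKM, the median SD was 0.31, beside 0.35 for all 3787 tested genes in that range. The smallest SDs belonged to Atp5f1a, the alpha subunit of the catalytic head of ATP synthase (0.11), Sdha, the flavoprotein of complex II (0.13), and Ndufb5, an accessory subunit of complex I (0.13). Atp5f1a kept between 167 and 217 FPKM in all libraries, Ndufb5 between 95.4 and 127 FPKM, and Sdhb, the iron-sulfur protein of complex II, between 83.1 and 116 FPKM.

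Levels differed greatly between subunits of the same complex on the per-length FPKM scale. In complex I, Ndufb8, an accessory subunit, was highest at a mean of 374 FPKM and Ndufb2, also accessory, lowest at 9.01 FPKM, although both belong to the same membrane arm. In complex II, Sdha averaged 119 FPKM and Sdhc, a membrane anchor, 11.9 FPKM. In complex III, Uqcrb averaged 216 FPKM and Uqcr10 34.5 FPKM, both small subunits of that complex. In complex IV, Cox6b1 was highest, between 356 and 596 FPKM. In complex V, the catalytic beta subunit Atp5f1b was highest, between 206 and 324 FPKM, whereas Atp5f1c, the central stalk subunit gamma, ranged from 1.79 to 4.73 FPKM and Atp5pb, of the peripheral stalk, from 0.55 to 10.7 FPKM. Among members with wider ranges, Cyc1, the cytochrome c1 of complex III, ran from 55.7 to 155 FPKM, Uqcrh, its hinge protein, from 69.4 to 208, Ndufs8, an iron-sulfur subunit of complex I, from 72.2 to 156, and Sdhd, the other membrane anchor of complex II, from 11.2 to 36.7 FPKM. Values of Atp5f1c and Atp5pb are uncertain, since reads of such genes may be split with near-identical copies, and how the authors counted shared reads is not stated. Whether levels of the other low members are affected in the same way was not tested. No row was matched under the names Cox7a2, Ndufs6 and Ndufa10, which also carry the prefixes of the name rule, and these subunits were not analysed here.

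**Figure D3:**
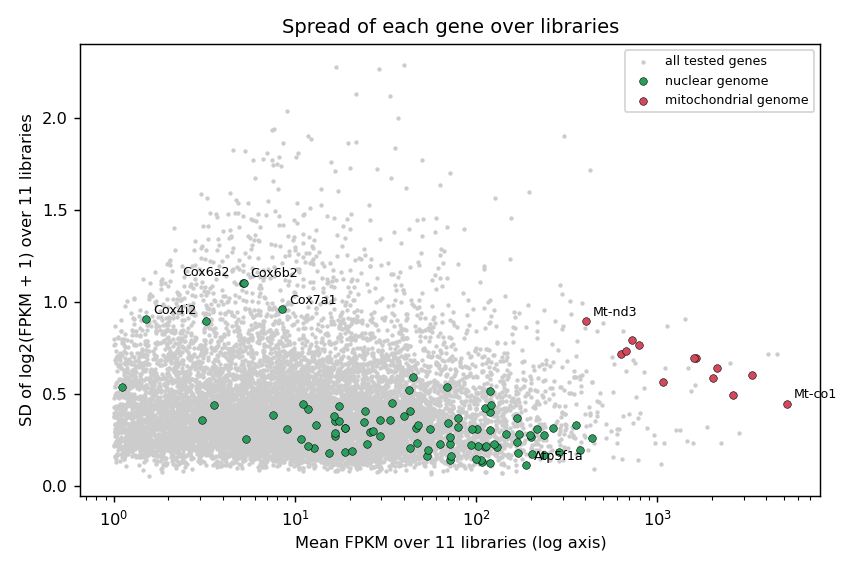
Points give, for each of the 12107 tested genes, the mean FPKM (horizontal log axis) and the SD of log2(FPKM + 1) over 11 libraries (vertical axis), with nuclear encoded members in green and mitochondrially encoded genes in red. The 13 mitochondrially encoded genes lie between SDs of 0.45 and 0.90, and among nuclear members the tissue isoforms Cox6a2, Cox6b2, Cox7a1 and Cox4i2 lie highest.

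Complex IV has subunits with a common form and a form best known from muscle, lung or testis, and the latter were low and unsteady in these neurons. Cox4i2, the form of subunit IV best known from lung, stood at 1.61, 2.52 and 1.82 FPKM in untreated libraries, at 1.47, 0, 0.08 and 5.80 in SCCM libraries and at 1.04, 2.18, 0.08 and 0 in PGE2 libraries, while the common Cox4i1 kept between 183 and 315 FPKM. Cox6b2, known from testis, stood at 7.52, 6.83 and 14.6 FPKM without treatment, 7.99, 0.61, 1.85 and 3.97 with SCCM and 8.10, 3.07, 0.99 and 0.93 with PGE2. Only SCCM replicate 1 and PGE2 replicate 1 reached the untreated range for Cox6b2. Cox7a1, the form of heart and skeletal muscle, stood at 6.61, 12.1 and 18.7 FPKM without treatment, 8.27, 3.37, 1.02 and 6.56 with SCCM and 6.07, 18.2, 8.89 and 3.74 with PGE2, and its groups overlapped. Cox6a2, also of heart and muscle, stood at 1.91, 5.51 and 1.80 FPKM without treatment, 2.32, 14.4, 2.51 and 1.08 with SCCM and 0.67, 4.33, 16.2 and 6.45 with PGE2, with its 2 highest values in SCCM replicate 2 and PGE2 replicate 3. These 4 isoforms had a median SD of 1.03 over libraries, against 0.29 for the 74 other nuclear subunits. Ndufa4l2, the paralog of the complex IV subunit Ndufa4 known to be induced by low oxygen, stayed at or below 3.00 FPKM, beside 85.9 to 134 FPKM for Ndufa4.

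Subunit c of ATP synthase, which forms the rotor ring, is encoded by 3 genes that give the same mature protein. Atp5mc3 was the highest at 140 to 240 FPKM, Atp5mc1 ranged from 17.0 to 70.6 and Atp5mc2 from 7.28 to 19.3 FPKM, and the order of the 3 was the same in every library.

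**Figure D4:**
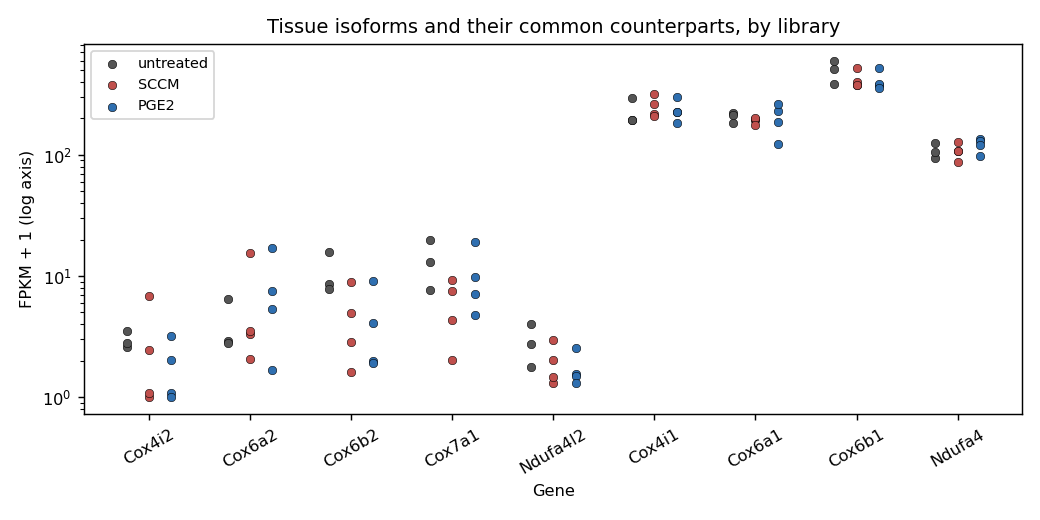
Points give FPKM + 1 (log axis) in each library for the tissue isoforms of complex IV, Ndufa4l2, and the common forms Cox4i1, Cox6a1, Cox6b1 and Ndufa4, coloured by group. The common forms keep between 85.9 and 596 FPKM, whereas the isoforms stay at or below 18.7 FPKM and spread widely within each group.

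No member passed the test between SCCM and untreated neurons, nor did any gene of the table. In limma's moderated test on log2(FPKM + 1), with Benjamini-Hochberg adjustment over all 12107 genes, 0 of 104 members had an adjusted p under 0.05, against 0.0% of all tested genes. With array weights, which gave untreated replicate 2 a weight of 41.1 against at most 1.89 for any other library, the counts were 48 members and 7314 genes, and with that library left out of the equally weighted fit 0 members were called. At an unadjusted p under 0.05 there were 4 of 104 members in the equally weighted fit, all lower with SCCM, against 13.6% of all genes (8.76% counting lower genes alone). The 13 mitochondrially encoded genes had a median log2 change of 0.37, with 12 of 13 above 0, and the 91 nuclear members a median of −0.04, with 38 above 0, beside −0.13 for all genes tested. With SCCM replicate 4 left out the mitochondrial median was 0.14 and with SCCM replicate 2 left out 0.21, and without untreated replicate 2 it was 0.06. With median-ratio scaling, which moved the median of all genes to −0.01, the nuclear median was 0.10 and 56 of 91 members were above 0.

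Among mitochondrially encoded genes the log2 change with SCCM ran from −0.07 for Mt-nd2, a value whose sign turned with the scaling, to 0.85 for Mt-nd3 (95% interval −0.48 to 2.17). Mt-co2, the subunit that takes electrons from cytochrome c, had a log2 change of 0.73 ± 0.47 (SE) and Mt-cyb of 0.71 ± 0.48 (SE), with adjusted p of 0.404 and 0.417 in limma. The change of Mt-nd3 was 0.42 without untreated replicate 2 and 1.27 without untreated replicate 1, and that of Mt-co2 was 0.46 without untreated replicate 2 and likewise without SCCM replicate 4. The 95% interval of Mt-cyb reached from −0.33 to 1.75, so the data do not show that its levels were alike with and without SCCM. Mt-cyb stood at 1365, 816 and 1190 FPKM in untreated libraries and at 1141, 2875, 1082 and 2938 in SCCM libraries, of which replicates 2 and 4 lay above and replicates 1 and 3 within the untreated range.

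In all, 5 of 104 members, each of them nuclear, had SCCM libraries that did not overlap with untreated libraries (4.81%), against 10.6% of all tested genes (4.72% higher and 5.87% lower with SCCM). Atp5mc2 stood at 14.3, 14.4 and 19.3 FPKM in untreated and at 10.4, 9.78, 7.28 and 11.5 FPKM in SCCM libraries, every SCCM library being lower. Its log2 change was −0.66 ± 0.25 (SE), with an adjusted p of 0.357 in limma. Sdha stood at 124, 124 and 135 FPKM in untreated and at 117, 112, 102 and 105 FPKM in SCCM libraries, again all lower, with a log2 change of −0.23 ± 0.14 (SE) and an adjusted p of 0.387 in limma. The other 3 were higher in every SCCM library, namely Atp5f1b by a log2 value of 0.33, Atp5pf, a peripheral stalk subunit of ATP synthase, by 0.33, and Uqcr11, a small complex III subunit, by 0.70, with adjusted p between 0.357 and 0.362 in limma. The value of Uqcr11 was 0.34 without untreated replicate 1 and that of Atp5f1b 0.20 without untreated replicate 3. Uqcr11 stood at 29.1, 59.1 and 64.7 FPKM in untreated and at 87.7, 78.3, 68.7 and 81.4 in SCCM libraries, a margin set by untreated replicate 3 and SCCM replicate 3.

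The other members at an unadjusted p under 0.05 were Cox6b2 (log2 change −1.42), Cox7a1 (−1.33) and Atp5if1 (−0.59), each with an adjusted p of 0.357 in limma. Atp5if1, whose product blocks ATP synthase from running in reverse, stood at 114, 143 and 147 FPKM in untreated and at 122, 79.0, 83.9 and 76.8 in SCCM libraries, with SCCM replicate 1 within the untreated range. Cd68 was likewise highest among SCCM libraries in replicate 1, at 14.5 FPKM, against 0.08, 0.08 and 0.37 in the others. Hypoxia averages of SCCM replicates 1 to 4 were 5.61, 4.42, 4.27 and 5.51, and replicate 4 had the lowest Atp5if1 of all libraries. The part of Cd68 and of the hypoxia genes in these differences was not tested. By class, nuclear subunits of complex I had a median log2 change of 0.01, of complex II −0.06, of complex III −0.04, of complex IV −0.06 and of complex V 0.03, and the 13 genes that are not subunits −0.37, with 11 of 13 below 0.

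PGE2 against untreated likewise gave 0 of 104 members at an adjusted p under 0.05 in limma, against 0.0% of all tested genes. At an unadjusted p under 0.05 there were 4 of 104 members, against 5.72% of all genes, and with array weights 0 members and 2 genes passed the adjusted threshold. The median log2 change was 0.32 over the 13 mitochondrially encoded genes, of which 10 were above 0, and −0.04 over the 91 nuclear members, of which 35 were above 0, beside −0.16 for all genes tested. The mitochondrial median was −0.09 without untreated replicate 2, 0.03 without PGE2 replicate 3 and 0.14 without PGE2 replicate 4. With median-ratio scaling, which moved the median of all genes to −0.02, the nuclear median was 0.13 and 63 of 91 members were above 0. Both treatments were compared with the same 3 untreated libraries, so likeness between the 2 comparisons is not independent.

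Mt-co1 was the only mitochondrially encoded gene whose PGE2 libraries did not overlap with the untreated ones, with a log2 change of 0.44 ± 0.34 (SE) and an adjusted p of 0.554 in limma. Mt-cyb had a log2 change of 0.45 ± 0.48 (SE), with an adjusted p of 0.633 in limma, and Mt-co3, of the complex IV core, of −0.08, a value whose sign turned with the scaling. The change of Mt-co1 was 0.25 without PGE2 replicate 3, and that of Mt-cyb was 0.19 without PGE2 replicate 3, 0.29 without PGE2 replicate 4, 0.23 without untreated replicate 2 and 0.75 without PGE2 replicate 2. In all, 4 of 104 members did not overlap (3.85%), against 5.33% of all tested genes (1.75% higher and 3.58% lower with PGE2). Cytochrome c was among them: Cycs stood at 115, 126 and 162 FPKM in untreated and at 107, 106, 97.4 and 100.3 FPKM in PGE2 libraries, every PGE2 library being lower. Its log2 change was −0.37 ± 0.16 (SE), with an adjusted p of 0.538 in limma, and it was −0.23 without untreated replicate 3. SCCM libraries held 125, 104, 94.6 and 108 FPKM of Cycs, of which replicate 1 lay within the untreated range. The remaining 2 were higher in every PGE2 library, namely Ndufa8, an accessory subunit of complex I, by a log2 value of 0.44 (adjusted p = 0.538 in limma) and Uqcrc2, a core subunit of complex III, by 0.31 (adjusted p = 0.538 in limma). The value of Ndufa8 was 0.28 without PGE2 replicate 4. Uqcrc2 was singled out after its values were seen.

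Atp5mf, a membrane subunit of ATP synthase, stood at 62.7, 77.3 and 52.2 FPKM in untreated and at 90.5, 104, 74.1 and 130 FPKM in PGE2 libraries, of which replicate 3 fell within the untreated range. Its log2 change was 0.62 ± 0.22 (SE), with an adjusted p of 0.538 in limma. Log2 changes were −1.55 for Cox6b2 and −0.56 for Atp5mc2, each with an adjusted p of 0.538 in limma, and Atp5mc2 in PGE2 replicate 2, at 16.8 FPKM, lay within the untreated range. By class, nuclear subunits of complex I had a median log2 change of −0.02, of complex II −0.05, of complex III −0.04, of complex IV −0.12 and of complex V 0.12, and the 13 genes that are not subunits −0.26.

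**Figure D5:**
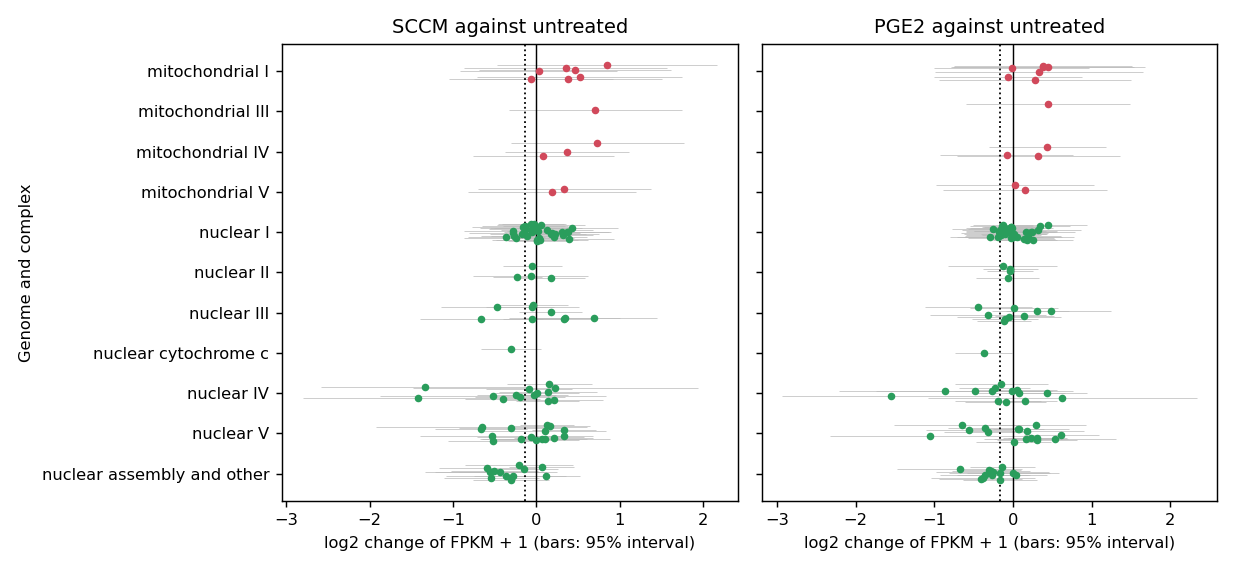
Points give the limma log2 change of each of the 104 members against untreated libraries, with 95% intervals, by genome and complex, for SCCM (left) and PGE2 (right). The solid line marks 0 and the dotted line the median of all 12107 tested genes, at −0.13 and −0.16, and the intervals of all 13 mitochondrially encoded genes span both lines in both panels.

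Between SCCM and PGE2, no member had an adjusted p under 0.05 in limma, against 0.00826% of all tested genes (1 of 12107, which is no member). At an unadjusted p under 0.05 there were 3 of 104 members, against 3.28% of all genes, and groups did not overlap for 0 of 104, against 2.21%. Ndufaf8, a complex I assembly factor, differed by a log2 value of 0.42 ± 0.17 (SE), with SCCM higher. Its levels were 21.9, 18.4, 15.6 and 19.9 FPKM in SCCM and 11.2, 13.99, 18.3 and 12.5 FPKM in PGE2 libraries. Atp5if1 differed by −0.59 and Atp5mf by −0.45, with SCCM lower, and all 3 had an adjusted p of 0.99995 in limma. Atp5if1 was at 107, 133, 104 and 218 FPKM in PGE2 libraries, of which replicate 4 was the highest of all 11, and without it the difference was −0.36. Mt-nd3 differed by 0.51 ± 0.56 (SE), with values from 0.09 without PGE2 replicate 2 to 0.87 without PGE2 replicate 3. The median difference was 0.09 over mitochondrially encoded genes and 0.02 over nuclear members, beside 0.02 for all genes tested.

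Genes that act around the respiratory chain were read from the same fit, and 0 of them had an adjusted p under 0.05 in limma in any of the 3 comparisons. Their counts below 0 stand beside 61.3% of all tested genes with SCCM and 67.1% with PGE2. The medians of all tested genes were −0.13 and −0.16, and median-ratio scaling moved them to −0.01 and −0.02. Of 31 tested genes for the expression and upkeep of mitochondrial DNA, 24 were below 0 with SCCM (median −0.33) and 23 with PGE2 (median −0.29). Twnk, the mitochondrial DNA helicase, stood at 24.7, 43.0 and 38.3 FPKM without treatment, 38.5, 10.97, 12.8 and 17.0 with SCCM and 25.8, 32.4, 12.1 and 10.0 FPKM with PGE2, and its log2 changes were −0.93 with SCCM and −0.90 with PGE2. Rexo2, which degrades short RNA pieces in mitochondria, stood at 10.7, 10.9 and 6.58 FPKM without treatment, 14.6, 26.4, 29.2 and 25.4 with SCCM and 9.20, 12.8, 26.9 and 30.2 with PGE2. Every SCCM library was above every untreated library for Rexo2, as for 4.72% of all tested genes, and Rexo2 was named for the largest change in its list. Its log2 change was 1.25 ± 0.39 with SCCM (SE, adjusted p = 0.357 in limma) and 0.88 ± 0.39 with PGE2 (SE, adjusted p = 0.538 in limma). Tfam, which packages mitochondrial DNA and starts its transcription, averaged 14.6 ± 6.10 FPKM in untreated (SD, n = 3), 10.9 ± 3.19 in SCCM (SD, n = 4) and 11.4 ± 3.76 in PGE2 libraries (SD, n = 4). The groups overlapped for Tfam, at 9.32 to 21.3 FPKM without treatment, 8.32 to 15.2 with SCCM and 7.14 to 16.0 with PGE2.

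Of 15 tested regulators of mitochondrial biogenesis, 12 were below 0 with SCCM (median −0.28) and 13 with PGE2 (median −0.27). Tfeb, a regulator of lysosomal and mitochondrial genes, had log2 changes of −1.47 ± 0.43 with SCCM and −1.06 ± 0.43 with PGE2 (SE, adjusted p = 0.357 and 0.538 in limma). It stood at 5.56, 5.89 and 8.27 FPKM without treatment, at 4.97, 1.02, 1.11 and 1.07 with SCCM and at 3.84, 4.82, 1.49 and 1.37 with PGE2, all treated libraries lying below the untreated ones. Of all tested genes, 5.87% were lower without overlap with SCCM and 3.58% with PGE2. Tfeb was named for the largest change in its list, which favours such a gap. Nrf1 itself averaged 4.52 ± 0.945 FPKM in untreated (SD, n = 3), 2.66 ± 0.798 in SCCM (SD, n = 4) and 2.90 ± 1.05 in PGE2 libraries (SD, n = 4). Its groups overlapped, since SCCM replicate 1 at 3.75 and PGE2 replicate 2 at 4.15 lay within the untreated range of 3.48 to 5.33 FPKM. Ppargc1a, the coactivator PGC-1alpha, ranged from 1.44 to 4.49 FPKM. Of 44 tested genes listed for complex assembly and related roles, 34 were below 0 with SCCM (median −0.15) and 36 with PGE2 (median −0.20). This list also holds Atp5if1, which is a member by its name and an inhibitor, not an assembly factor. Cox18, which inserts Mt-co2 into the membrane, was at −0.75 and −0.77. Without untreated replicate 3 these values of Cox18 were −0.42 and −0.43.

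Of 26 tested genes of the tricarboxylic acid cycle and pyruvate oxidation, 16 were below 0 with either treatment (median −0.10 in both). Pdk1, a kinase that shuts pyruvate out of the cycle and is induced by low oxygen, stood at 32.6, 42.2 and 47.3 FPKM without treatment, 27.6, 8.38, 6.11 and 39.0 with SCCM and 29.5, 39.9, 6.79 and 5.11 with PGE2. Low values of Pdk1 fell in the 4 libraries with low hypoxia averages, and this gene belongs to that list as well. Of 12 tested carriers and outer membrane channels, 7 were above 0 with SCCM and 5 with PGE2, and of 19 genes for mitophagy and organelle dynamics 9 and 6. Of 18 genes of the mitochondrial stress response, 14 were below 0 with SCCM (median −0.45) and 12 with PGE2 (median −0.09). Fgf21, a hormone released under mitochondrial stress, had log2 changes of −2.84 ± 1.08 with SCCM and −1.70 ± 1.08 with PGE2 (SE, adjusted p = 0.357 and 0.538 in limma). It stood at 572, 500 and 485 FPKM without treatment, 349, 37.3, 51.2 and 38.2 with SCCM and 506, 735, 55.3 and 30.4 with PGE2, so that 5 treated libraries were far below all others. Without PGE2 replicate 4 the PGE2 value of Fgf21 was −0.91. Of 37 hypoxia and glycolysis genes, 33 were below 0 with either treatment, with medians of −0.89 and −0.85, and their part in the values of the members was not tested.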

How the data were processed

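Bulk RNA of 11 rat DRG neuron cultures (3 untreated, 4 SCCM, 4 PGE2) was measured. The authors deposited FPKM with 2 decimals in a table of all libraries. Rnor 6.0 is the build, per the submitters' processing notes. Aligner, counter and gene models were not given in the sources used here. Read totals are unknown. Relative depth, read from the commonest ratio of low FPKM values between libraries, closed within 0.1 (log2) in 45 of 45 library pairs. Ratios beyond a set limit were left out, so this closure does not show that depth was alike.

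Tests ran on genes whose mean FPKM reached 1, on the scale log2(FPKM + 1), which understates the change of low genes. A limma model with 3 groups and an intensity trend (limma 3.58.1, R 4.3.3) was fitted over 12107 genes, two-sided, with Benjamini-Hochberg adjustment in each comparison. It was also run on simulated data with independent residuals. These lack any structure shared between genes or libraries, so that run does not show how the model performs on the real values. No count model was used, because the values are FPKM. Sums, medians and counts over members carry no p-value. P-values treat the cultures, each from pooled embryos of a pregnant rat, as independent replicates. The labels do not say whether cultures of different groups shared a rat or a dissection.

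Members and lists were chosen with earlier results of these data known. Named were all mitochondrially encoded genes, per complex the highest, lowest and most changed nuclear members, isoform pairs, the steadiest and least steady members, and up to 2 genes per list with the largest changes. Tfam, Nrf1, Ppargc1a and members given only by their range were added for their role. Alternatives were other pseudocounts, filters, scalings, fits, array weights, a replicate block, other member definitions and leaving out each library. RefSeq promoters (GRCr8) were matched by symbol (90 of 91 nuclear members had a symbol there), and no coordinates of the authors' build were used.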

Additional observations from a re-analysis of the deposited data

Results flagged for a closer look

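In groups of 4 libraries, 118 sets of values were searched for a library that stood apart from the others of its group by more than Dixon's 95% critical value, and 4 were found. By chance about 1 in 20 such sets would be. Atp5if1 stood at 121.77 FPKM in SCCM replicate 1, above the next SCCM library at 83.9. Cox6b1, the common form of a complex IV subunit, stood at 522.72 FPKM in the same library, above the next at 398. Cox6a2 stood at 14.44 FPKM in SCCM replicate 2, above the next at 2.51. Atp5pb stood at 5.11 FPKM in PGE2 replicate 2, above the next at 1.24, and its level is uncertain as described above. No explanation of these values was tested.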

How the results depend on the processing

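Array weights gave 7314 genes and 48 members called for SCCM against untreated, with a mitochondrial median of 1.07. They gave 2 genes for PGE2 against untreated, with a nuclear median of −0.21 in place of −0.04, and their estimation stopped before it converged. Median-ratio scaling gave a nuclear median of 0.13 for PGE2 against untreated. The gene called between SCCM and PGE2 was lost (0 genes) with a pseudocount of 0.1, without the filter and with the replicate block, and leaving out each library gave 0 to 1 genes. For SCCM against untreated that range was also 0 to 1, and the 1 gene appeared without SCCM replicate 1. Without assembly factors and paralogs the nuclear share was 1.74% without treatment, 1.86% with SCCM and 1.87% with PGE2. What caused these moves was not tested.

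Mt-nd2 in SCCM against untreated turned to 0.022 when FPKM were rescaled to a common sum, 0.077 with median-ratio scaling and 0.30 with array weights, and ran from −0.41 to 0.23 with each library left out. Mt-co3 in PGE2 against untreated turned to 0.025, 0.093 and 0.13 under those settings, and ran from −0.22 to 0.16. Leaving out each library moved the mitochondrial median between 0.06 and 0.63 for SCCM against untreated, between −0.09 and 0.64 for PGE2 against untreated, and between −0.18 and 0.35 for SCCM against PGE2.

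The labels do not say whether replicate numbers pair the cultures. Deviations from group means correlated between −0.51 and 0.49 for same-numbered libraries of different groups. For differently numbered ones they correlated between −0.60 and 0.72. Such correlations cannot settle how the cultures were set up. With the replicate block the mitochondrial medians were 0.18, 0.10 and 0.09 in the 3 comparisons and 0 members were called. Read totals are unknown, so how far depth limits members of a few FPKM, such as the tissue isoforms, was not measured.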
